A study of Nematostella vectensis with 4 samples.

Results

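Neuropeptide receptor-like genes of the starlet sea anemone Nematostella vectensis were taken as the gene models whose name in the deposited gene table begins with the entry name of a peptide receptor of another animal, such as NPFF2, OX2R, NPYR, NK2R, CCKAR, SSR4 or GALR2. Of 25734 gene models, 17269 carried a name, and 126 met this rule. The choice used names only and no measured value. The names point to a protein family, and whether any of these genes binds a peptide was not tested. Transcripts of single cells had been counted in 4 libraries of sub-adult polyps aged 5 months, 1 library each from pieces of body wall, pharynx, tentacle and mesentery, the last being the inner folds of the gut cavity. The labels give no strain, treatment or number of pooled animals, and all 4 tissues went through the same dissociation with TrypLE Select, a trypsin-like enzyme, and the same version 2 droplet chemistry of 10x Genomics. With 1 library per tissue no value has a replicate error, so no test between tissues was run, and all intervals are 95% intervals for counting error only.

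Neuropeptides are short peptides cut from larger precursors and released mainly by neurons and secretory cells. Most known receptors for them are G protein-coupled receptors, membrane proteins that pass the signal to a G protein inside the cell and are then switched off by kinases and arrestins. Sea anemones have a diffuse nerve net rich in neuropeptides, of which the amidated RFamide peptides are the classic example, and peptides there are known to act on muscle contraction, among other processes. The vertebrate and fly receptors after which these models are named have well-studied ligands, but the ligands of the sea anemone genes cannot be read from the names.

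The names fell into 18 receptor types. Models named after receptors of RFamide-type peptides (NPFF1, NPFF2 and QRFPR, which in mammals bind neuropeptide FF and QRFP) numbered 49. There were 26 models of the tachykinin type (NK1R, NK2R and NK3R, receptors of substance P and the neurokinins in mammals) and 17 of the neuropeptide Y type (NPYR_DROME from the fly and NPY1R from mammals). Somatostatin and galanin receptors (SSR4, SSR5 and GALR2), which dampen or modulate secretion and neuron activity in mammals, gave 13 names. Orexin receptors (OX1R and OX2R), known in mammals for wakefulness and feeding, gave 11, cholecystokinin and gastrin receptors (CCKAR and GASR), known there for bile release and digestion, 5, the receptors of thyrotropin-releasing hormone and neuromedin U 4, and the receptor LGR6 1. Only 42 distinct names were used, 22 of them by more than 1 model (106 models in all, with NPYR_DROME on 14), so each gene is given with its NVE identifier. Models that share a name may be close copies, and reads that match more than 1 of them cannot be assigned with certainty.

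Cells were taken as barcodes with at least 300 unique molecular identifiers (UMIs, each standing for 1 captured transcript). These numbered 1652 in body wall, 2804 in pharynx, 1299 in tentacle and 1357 in mesentery, with medians of 542 to 766 UMIs and sums of 1563722 to 2755343 UMIs per tissue. Between 7 and 15 of the kept barcodes in a library had the same sequence as one kept in another library. Levels are given as UMIs per 1000000 UMIs of the tissue (CPM), and 3 UMIs, the floor used where a count was 0, equal 1.09 to 1.92 CPM. The tissue labels were set against markers: the cnidocyte list (4 genes of stinging cells, all detected) stood at 10370.3 CPM in tentacle and 355 to 1729 CPM elsewhere, and the digestive gland list (118 of 134 genes detected) at 28389 CPM in mesentery and 997 to 5312 CPM elsewhere. In such sums, fewer cells of a type and less RNA per cell cannot be told apart.

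The receptor-like genes were expressed at low levels, and a few of them held most of the transcripts. Together the 126 genes had 3250 UMIs in kept cells. Of these genes, 110 had at least 1 UMI, 40 had at least 20, 14 had at least 50, and 16 had none. The single most abundant member, NPY1R_RAT (NVE3590), took 14.3% of all receptor UMIs, the top 5 took 39.8% and the top 10 took 54.6%. The 86 members under 20 UMIs shared 458 UMIs (14.1%), with a median of 5 UMIs among those detected, and are described below only as counts. Of the 7112 cells, 5215 showed no member, 1350 showed 1, 357 showed 2 and 190 showed at least 3, with at most 8 different members in a cell, reached in body wall. A cell that held a member usually held a single UMI of it: the 40 members with at least 20 UMIs had a median of 1.13 UMIs per positive cell, against 1.07 for the 10901 genes with 20 to 500 UMIs.

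As a group, the receptor-like genes took a larger share of the transcripts in body wall and pharynx than in tentacle and mesentery. The list stood at 499 CPM in body wall (468 to 530, 999 UMIs), 472 CPM in pharynx (447 to 498, 1300 UMIs), 294 CPM in tentacle (270 to 320, 542 UMIs) and 262 CPM in mesentery (237 to 288, 409 UMIs). The intervals of body wall and pharynx overlapped, as did those of tentacle and mesentery, while the 2 pairs lay apart. Without NPY1R_RAT (NVE3590) the pharynx came first, at 436 CPM against 384 CPM in body wall, 245 CPM in tentacle and 232 CPM in mesentery. Without barcodes over 5000 UMIs pharynx and body wall were nearly level, at 523 CPM and 515 CPM. The share of cells with at least 1 receptor UMI was 34.6% in body wall, 27.7% in pharynx, 23.0% in tentacle and 18.4% in mesentery. After each cell was thinned to 300 UMIs, the shares were 14.04%, 12.8%, 10.0% and 7.81% in the same order of tissues. The mesentery, lowest on each of these scales, was the tissue where digestive gland markers were highest (28389 CPM), and their part in its low receptor level was not tested.

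The tentacle's receptor level was also taken without its clusters of stinging cell markers. In a joint clustering of the cells, made without the receptor-like genes, 4 clusters (3, 4, 6 and 23) had a cnidocyte list level of 15852 to 31864 CPM, against at most 299 CPM in any other cluster of at least 50 cells. Among clusters of that size, the receptor list was lowest in the same 4. They held 25.7% of the tentacle cells, 4.39% of the pharynx cells, 1.92% of the mesentery cells and 1.15% of the body wall cells. In the cells outside them, the receptor list stood at 533 CPM in tentacle (488 to 581), 524 CPM in pharynx (496 to 553), 509 CPM in body wall (478 to 542) and 276 CPM in mesentery (249 to 304). With those clusters left out, a choice made after seeing the data, tentacle, pharynx and body wall had overlapping intervals and the mesentery alone lay lower. Leaving them out also raised the tentacle's median log2 ratio over all genes by 0.34.

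Single members were distributed unevenly over the tissues. A gene with at least 20 UMIs was called high in a tissue when its CPM there was at least 2 times that of the other 3 tissues pooled, and low when it was at most 0.5 times (a count of 0 was set to the floor first). Of the 40 members with at least 20 UMIs, 35 were high in a tissue, none of them in more than 1, against 47.7% of all 12380 genes so tested. Since small counts scatter more, the count was also read within bands of abundance. Among members with 20 to 49 UMIs 23 of 26 were high in a tissue (53.5% of all genes in that band), and among those with 50 to 500 UMIs 12 of 14 were (45.7%). Only 3 members had no call in any tissue, against 36.7% of all genes.

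The body wall had the most high members, 14 of 40, where 11.2% of all genes were high, followed by the pharynx with 13 of 40 (13% of all genes). The tentacle had 5 high members (15.9% of all genes) and the mesentery 3 (8.92%). Low calls ran the other way: 22 members were low in the tentacle (24.7% of all genes), 19 in mesentery (21.3%), 11 in body wall (28.5%) and 8 in pharynx (17.6%). On the log2 scale, the median ratio to the other 3 tissues was 0.42 in body wall, -0.19 in pharynx, -0.86 in mesentery and -1.31 in tentacle for the 40 members, beside -0.29, -0.10, -0.15 and -0.12 for all genes. Without the 4 cnidocyte-rich clusters the tentacle counts moved to 8 high and 13 low, while those of the other tissues moved by at most 3 in either direction.

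**Figure D1:**
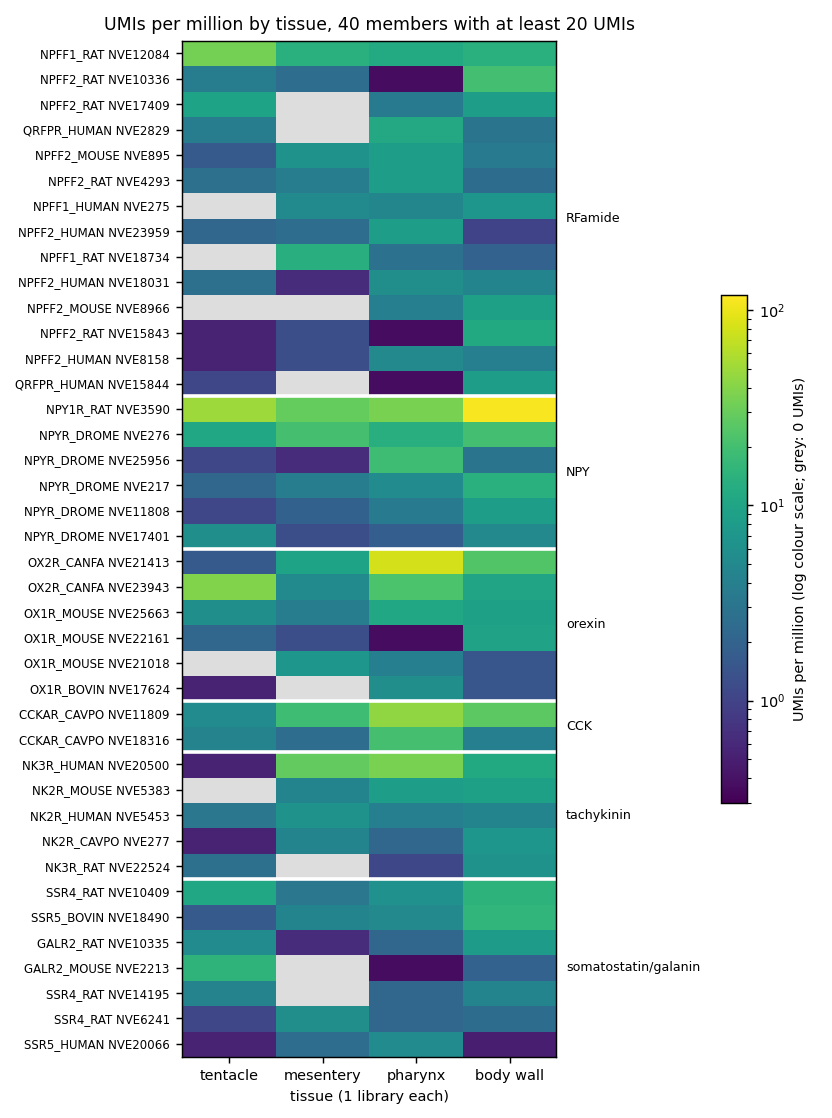
CPM of the 40 members with at least 20 UMIs (rows, grouped by receptor type and sorted by abundance) in the 4 tissues (columns, 1 library each), on a log colour scale with grey for 0 UMIs. NPY1R_RAT NVE3590 in body wall (114 CPM) and OX2R_CANFA NVE21413 in pharynx (80.9 CPM) are the brightest squares, and most rows have 1 bright tissue.

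The neuropeptide Y type models were led by the body wall. The 17 models summed to 172 CPM in body wall, 81.3 CPM in pharynx, 79.2 CPM in tentacle and 63.3 CPM in mesentery, and the body wall stood 2.26-fold above the other 3 (1.96 to 2.61). NPY1R_RAT (NVE3590), named after the rat receptor through which neuropeptide Y constricts vessels and stimulates feeding, had 229 UMIs in body wall (114 CPM), 91 in tentacle (49.4 CPM), 98 in pharynx (35.6 CPM) and 46 in mesentery (29.4 CPM). At least 1 UMI was seen in 12.3% of body wall cells, 5.93% of tentacle cells, 3.21% of pharynx cells and 3.10% of mesentery cells. After thinning to 300 UMIs per cell these shares were 3.75%, 2.54%, 0.856% and 0.663%. In cluster 6 of the joint clustering, rich in stinging cell markers, 0.719% of the cells had one at a median of 2356 UMIs, against medians of 542 to 766 UMIs in the tissues. The body wall was 2.997-fold above the other 3 tissues (2.49 to 3.61) and 2.31-fold above the tentacle, the next highest (1.81 to 2.98), whereas pharynx and mesentery did not differ beyond counting error (1.21-fold, 0.843 to 1.76).

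The other abundant models of that type carry the name of the fly receptor NPYR_DROME, and they differed among themselves. NVE276 had 32 UMIs in mesentery (20.5 CPM), 40 in body wall (19.96 CPM), 35 in pharynx (12.7 CPM) and 20 in tentacle (10.8 CPM), and no neighbours in that order differed beyond counting error. Mesentery (1.89-fold, 1.05 to 3.48) and body wall (1.84-fold, 1.05 to 3.32) did lie above the tentacle. NVE25956 had 51 UMIs in pharynx (18.5 CPM), 6 in body wall, 2 in tentacle and 1 in mesentery, an 11.1-fold higher level in the pharynx than in the other 3 tissues (5.43 to 25.7). NVE217 had 27 UMIs in body wall (13.5 CPM), 15 in pharynx (5.44 CPM), 6 in mesentery (3.84 CPM) and 4 in tentacle (2.17 CPM), 3.32-fold above the others in the body wall (1.86 to 5.97). The models of this name thus had no common leading tissue.

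As a sum, the orexin type models were led by the pharynx. Their sum was 127 CPM in pharynx, 61.4 CPM in body wall, 49.9 CPM in tentacle and 30.1 CPM in mesentery, 2.63-fold above the other tissues in the pharynx (2.24 to 3.10). Of the group's 351 UMIs in pharynx, 223 came from 1 model, OX2R_CANFA (NVE21413). Of the 6 models with at least 20 UMIs, 2 were high in the pharynx (13% of all genes). In tentacle (15.9%), body wall (11.2%) and mesentery (8.92%) 1 each was high. OX2R_CANFA (NVE21413), named after the dog receptor whose loss causes narcolepsy, had 223 UMIs in pharynx (80.9 CPM), 47 in body wall (23.5 CPM), 15 in mesentery (9.59 CPM) and 3 in tentacle (1.63 CPM). Each step in that order exceeded counting error: pharynx was 3.45-fold above body wall (2.51 to 4.83), body wall 2.45-fold above mesentery (1.34 to 4.71) and mesentery 5.89-fold above tentacle (1.67 to 31.8). The pharynx stood 6.74-fold above the other 3 together (5.09 to 9.02).

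A second model of the same name, OX2R_CANFA (NVE23943), had another order. It had 71 UMIs in tentacle (38.5 CPM), 60 in pharynx (21.8 CPM), 20 in body wall (9.98 CPM) and 8 in mesentery (5.12 CPM), and the tentacle was 2.77-fold above the others (2.00 to 3.83). Of the OX1R models, OX1R_MOUSE (NVE25663) had 29 UMIs in pharynx, 18 in body wall, 11 in tentacle and 6 in mesentery, with no high call and no neighbours apart beyond counting error. OX1R_MOUSE (NVE21018) had 11 UMIs in mesentery (7.03 CPM), 11 in pharynx (3.99 CPM), 3 in body wall (1.50 CPM) and 0 in tentacle. It was called mesentery-high at 3.32-fold (1.36 to 7.87), although mesentery and pharynx alone did not differ beyond counting error (1.76-fold, 0.693 to 4.48). OX1R_BOVIN (NVE17624) had 16 UMIs in pharynx, 3 in body wall, 1 in tentacle and 0 in mesentery, 7.86-fold higher in the pharynx (2.53 to 32.3).

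The cholecystokinin type was the group with the largest high ratio of a tissue to the others. Its 5 models summed to 65.7 CPM in pharynx, 30.4 CPM in body wall, 21.1 CPM in mesentery and 9.76 CPM in tentacle, 3.17-fold higher in the pharynx (2.49 to 4.05). Almost all of it came from a pair of models named CCKAR_CAVPO, after the guinea pig form of a receptor that drives gallbladder contraction in mammals. NVE11809 had 121 UMIs in pharynx (43.9 CPM), 53 in body wall (26.4 CPM), 29 in mesentery (18.5 CPM) and 10 in tentacle (5.42 CPM), 2.58-fold above the others in the pharynx (1.95 to 3.43). NVE18316 had 57 UMIs in pharynx (20.7 CPM), 8 in tentacle (4.34 CPM), 8 in body wall (3.99 CPM) and 4 in mesentery (2.56 CPM), 5.60-fold above (3.31 to 9.84). Both were high in the pharynx, and for NVE18316 the other 3 tissues could not be told apart within counting error.

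The RFamide type was the group with the most models and showed no single leading tissue. Its 49 models summed to 128 CPM in body wall, 101 CPM in pharynx, 86.8 CPM in tentacle and 66.5 CPM in mesentery, and of the 14 with at least 20 UMIs, 6 were high in the pharynx (13% of all genes), 5 in body wall (11.2%), 2 in tentacle (15.9%) and 1 in mesentery (8.92%). Of the 6, NPFF2_MOUSE (NVE895), NVE18031 and NVE8158 fell under the threshold without their richest cell, at 1.67, 1.44 and 1.79. NPFF1_RAT (NVE12084) had 63 UMIs in tentacle (34.2 CPM), 27 in body wall (13.5 CPM), 21 in mesentery (13.4 CPM) and 32 in pharynx (11.6 CPM), 2.70-fold above the others in the tentacle (1.91 to 3.81). The other 3 tissues were level. NPFF1_RAT (NVE18734), with the same name, had 20 UMIs in mesentery (12.8 CPM), 8 in pharynx (2.90 CPM), 4 in body wall (2.00 CPM) and 0 in tentacle, and at 7.04-fold (3.28 to 15.8) it had the largest mesentery ratio of any member.

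Body wall and pharynx were each the highest tissue of some RFamide type models. NPFF2_RAT (NVE10336) had 40 UMIs in body wall (19.96 CPM), 7 in tentacle, 4 in mesentery and 1 in pharynx, 10.3-fold above the others (5.27 to 21.5). NPFF2_RAT (NVE15843) had 23 UMIs in body wall, 2 in mesentery, 1 in tentacle and 1 in pharynx, 17.7-fold (6.04 to 70.3), and QRFPR_HUMAN (NVE15844) had 17 in body wall, 2 in tentacle, 1 in pharynx and 0 in mesentery, 17.4-fold (5.04 to 92.8). Their intervals are wide because so few UMIs lay outside the body wall. QRFPR_HUMAN (NVE2829), by contrast, had 31 UMIs in pharynx (11.3 CPM), 7 in tentacle, 6 in body wall and 0 in mesentery, 4.68-fold higher in the pharynx (2.38 to 9.75). NPFF2_MOUSE (NVE895) had 23 UMIs in pharynx, 10 in mesentery, 7 in body wall and 3 in tentacle, 2.26-fold (1.19 to 4.34), with 6 of its UMIs in 1 pharynx cell. For NVE895 the pharynx did not differ beyond counting error from mesentery (1.31-fold, 0.598 to 3.07) or body wall (2.39-fold, 0.993 to 6.59).

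The tachykinin type, like the cholecystokinin type (0.225 times the other tissues, 0.131 to 0.362), was scarce in the tentacle. The 26 models summed to 15.7 CPM in tentacle, against 63.5 CPM in pharynx, 58.8 CPM in mesentery and 50.9 CPM in body wall, a ratio of 0.270 to the other 3 tissues (0.178 to 0.394). The model with the most UMIs, 168 of the group's 398, was NK3R_HUMAN (NVE20500), named after the human neurokinin receptor that acts on the neurons controlling reproduction. It had 99 UMIs in pharynx (35.9 CPM), 45 in mesentery (28.8 CPM), 23 in body wall (11.5 CPM) and 1 in tentacle (0.542 CPM), where the group had 29. The pharynx was 2.82-fold above the other tissues (2.05 to 3.89), while pharynx and mesentery did not differ beyond counting error (1.25-fold, 0.869 to 1.82). NK2R_MOUSE (NVE5383) had 18 UMIs in body wall (8.98 CPM), 24 in pharynx (8.71 CPM), 7 in mesentery (4.48 CPM) and 0 in tentacle, where 3 UMIs would make 1.63 CPM, and no tissue was called high. Both genes were nearly absent from the tentacle. The tentacle was low for 3 of the 5 tachykinin models with at least 20 UMIs, beside 22 of all 40 members and 24.7% of all genes, so that count is not particular to the type.

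The somatostatin and galanin type models were higher in body wall and tentacle. Their sum was 54.9 CPM in body wall (45.1 to 66.2), 47.2 CPM in tentacle (37.8 to 58.2), 29.0 CPM in pharynx and 18.5 CPM in mesentery. Of the 110 UMIs in the body wall sum, 19 were of SSR4_RAT (NVE10409) in 1 cell. Body wall and tentacle thus cannot be ordered from these sums. SSR5_BOVIN (NVE18490) had 31 UMIs in body wall (15.5 CPM), 14 in pharynx (5.08 CPM), 7 in mesentery (4.48 CPM) and 3 in tentacle (1.63 CPM), 3.97-fold above the others (2.26 to 7.07). GALR2_RAT (NVE10335) had 16 UMIs in body wall, 10 in tentacle, 6 in pharynx and 1 in mesentery, 2.89-fold (1.37 to 6.09), with body wall and tentacle not apart beyond counting error. GALR2_MOUSE (NVE2213) had 27 UMIs in tentacle (14.6 CPM), 4 in body wall (2.00 CPM), 1 in pharynx (0.363 CPM) and 0 in mesentery, and its tentacle ratio of 18.5 (7.03 to 61.6) was the largest of any member with at least 20 UMIs.

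The SSR4 models were less clear. SSR4_RAT (NVE10409) had 29 UMIs in body wall (14.5 CPM), 20 in tentacle (10.8 CPM), 17 in pharynx (6.17 CPM) and 5 in mesentery (3.20 CPM), and passed as body wall-high at 2.12-fold (1.28 to 3.49). However, 19 of its body wall UMIs came from 1 cell of 2201 UMIs, and without that cell the ratio was 0.733, so the body wall was no longer the higher side. Of the 35 members called high in a tissue, 5 fell under the threshold of 2 when their richest cell was left out, a check chosen after seeing the data. SSR4_RAT (NVE6241) had 9 UMIs in mesentery, 6 in pharynx, 5 in body wall and 2 in tentacle, 2.92-fold in the mesentery (1.10 to 7.39). The receptors of thyrotropin-releasing hormone and neuromedin U, 4 models with 27 UMIs in all, and LGR6, with 1 UMI, were too scarce to order the tissues.

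**Figure D2:**
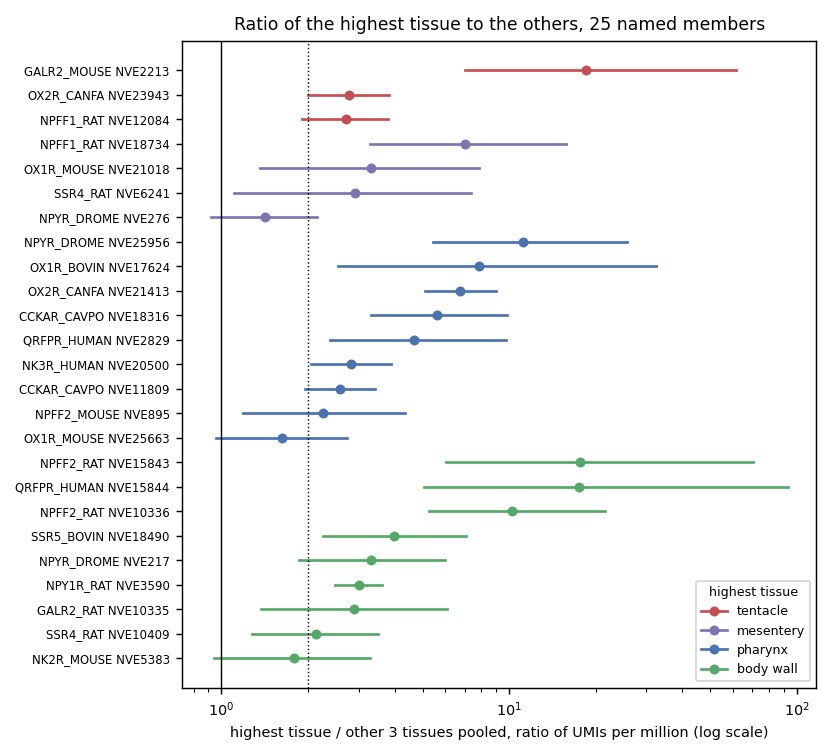
Ratio of CPM in a member's highest tissue to the other 3 tissues pooled, on a log axis, for the 25 members named by the naming rule; points are ratios, bars 95% intervals for counting error, colours the highest tissue, and the dotted line is the threshold of 2. The ratios run from 1.42 for NPYR_DROME NVE276 to 18.5 for GALR2_MOUSE NVE2213, and the widest bars belong to genes with very few UMIs outside their highest tissue.

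The receptor-like genes were also concentrated by cell cluster. The joint clustering, made without the 126 genes, gave 28 clusters, of which 25 had at least 50 cells. Clusters 7 and 15 met the marker rule as muscle-like and cluster 24 as digestive gland-like, and the others keep their numbers. Over the 25 clusters the receptor list had a median of 322 CPM, against 398 CPM over all cells, and ran from 1756 CPM in cluster 2 to 20.1 CPM in cluster 6. After cluster 2 came cluster 19 with 991 CPM, cluster 15 with 958 CPM, cluster 18 with 922 CPM, cluster 11 with 899 CPM and cluster 5 with 700.03 CPM. The share of cells with a receptor UMI was 56.8% in cluster 2, whose cells had a median of 769 UMIs, and 5.04% in cluster 6, whose cells had a median of 2356 UMIs. Cluster 27, with only 26 cells and all of them from the body wall, stood at 1600.04 CPM. Of its 58 receptor UMIs, 19 were of SSR4_RAT (NVE10409) in 1 cell.

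**Figure D3:**
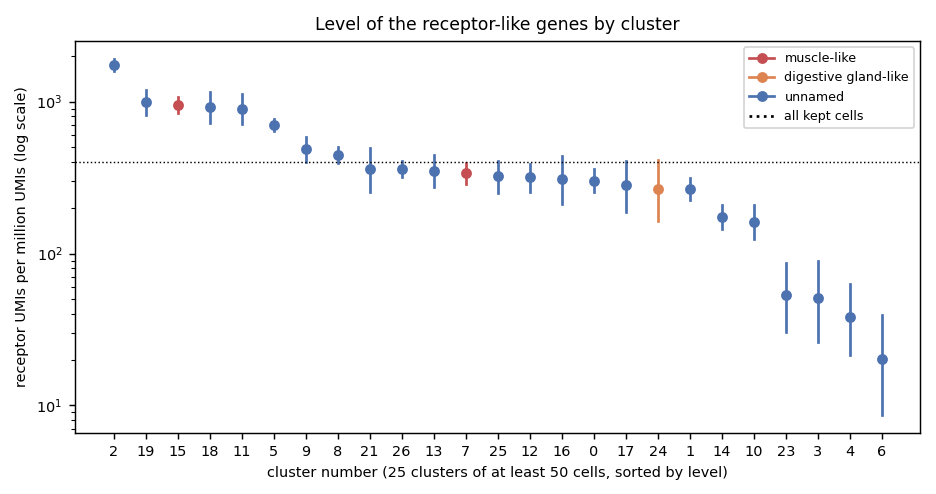
Summed CPM of the 126 members (log axis) in the 25 clusters of at least 50 cells, sorted from the highest, with 95% intervals for counting error; colours mark the muscle-like and digestive gland-like clusters and the dotted line is the level over all cells. Cluster 2 (1756 CPM) lies above all others and clusters 23, 3, 4 and 6 (20.1 to 53.3 CPM) below.

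Cluster 2 held the greatest variety of receptors. It had 278 cells, 121 from the tentacle, 65 from the pharynx, 62 from the body wall and 30 from the mesentery, and its leading genes were unnamed models (NVE17329, NVE244) and TBA1_PARLI (NVE24203), named after a tubulin. Of the 126 members 79 were detected there, and it took 14.5% of all receptor UMIs with 3.28% of all UMIs. Within it, the list stood at 2550 CPM in body wall (2175 to 2970), 2301 CPM in mesentery (1718 to 3017), 1968 CPM in pharynx (1660 to 2317) and 1021 CPM in tentacle (839 to 1231), so only the tentacle interval lay apart from the others. The RFamide type had the highest level there, with 218 UMIs and 813 CPM (708 to 928) and 30 of its 49 models detected, which was 27.3% of the group's UMIs. The somatostatin and galanin type had 84 UMIs and 313 CPM (250 to 388), 27.5% of its own UMIs.

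The neuron marker list (87 of 101 genes detected, some of them also peptide processing genes) stood at 1655 CPM in cluster 2, but also at 1771 CPM in cluster 6 and 1664 CPM in cluster 4, where the receptor list stood at 20.1 and 38.5 CPM, and cluster 2 did not meet the marker rule for a neuron-like name. The RFamide precursor of the gene table (Rfamide, NVE7549), the source of the RFamide peptides themselves, had 397 of its 469 UMIs in cluster 2. By tissue it had 300 UMIs in tentacle, 167 in pharynx, 2 in body wall and 0 in mesentery. Across whole tissues the neuron list was highest in the tentacle, at 1119 CPM, against 718 CPM in pharynx, 685 CPM in body wall and 537 CPM in mesentery.

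Of the 40 members with at least 20 UMIs, 12 had at least 50% of their UMIs in 1 cluster, against 12.7% of genes with 20 to 500 UMIs. All but 1 of them had 20 to 49 UMIs: 11 of 26 members in that band, against 14.3% of genes, and 1 of 14 in the band of 50 to 500 UMIs, against 11.7%. Of the 12, 8 peaked in cluster 2, 2 in cluster 5, 1 in cluster 11 and 1 in cluster 15. NPFF2_RAT (NVE15843) had 22 of its 27 UMIs (81.5%) in cluster 2, and NPFF2_MOUSE (NVE895) 28 (65.1%). Within cluster 2, NVE15843 stood at 294 CPM in body wall cells and 14.7 CPM in those of the other tissues, 19.9-fold (5.86 to 105), from 9 of 62 body wall cells and 3 of 216 others. OX2R_CANFA (NVE21413) was likewise higher in the body wall cells of cluster 2, at 232 CPM against 19.7 CPM (11.8-fold, 3.76 to 48.8), although the gene as a whole was highest in the pharynx.

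**Figure D4:**
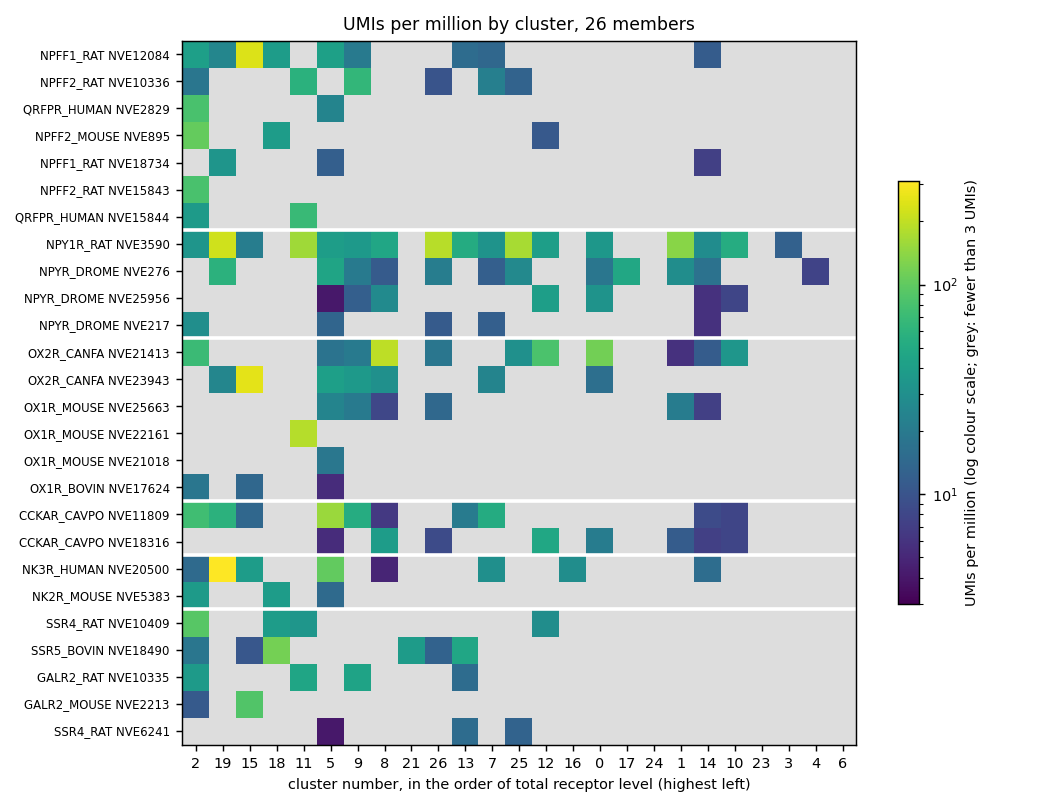
CPM of 26 members (rows, grouped by receptor type) in the 25 clusters of at least 50 cells (columns, highest receptor level at the left), on a log colour scale with grey for fewer than 3 UMIs. NPFF2_RAT NVE15843 and NPFF2_MOUSE NVE895 are brightest in cluster 2 (82.0 and 104 CPM), NK3R_HUMAN NVE20500 peaks in cluster 19 (305 CPM), and OX2R_CANFA NVE23943 and NPFF1_RAT NVE12084 peak in cluster 15 (255 and 241 CPM).

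Cluster 15 was muscle-like, with 98 tentacle, 49 pharynx and 37 mesentery cells. Its leading genes included MYL9_MOUSE (NVE20160) and TPM4_MOUSE (NVE1725), named after a myosin light chain and a tropomyosin. It held the most UMIs of the 3 named members that were high in the tentacle. OX2R_CANFA (NVE23943) stood at 507 CPM in its tentacle cells and 39.5 CPM in its pharynx and mesentery cells, 12.8-fold (5.59 to 36.2). NPFF1_RAT (NVE12084) stood at 469 CPM and 46.1 CPM in the same cells, 10.2-fold (4.65 to 26.4). GALR2_MOUSE (NVE2213) had 25 UMIs in tentacle cells (192 CPM) and 0 in the others, at least 9.73-fold with the others set to the floor of 3 UMIs. Cluster 15 had no body wall cells, so these ratios are not set against those between whole tissues. Of the tentacle-high members outside the naming rule, NPFF2_RAT (NVE17409) had 14 of its 45 UMIs in cluster 15 and NPYR_DROME (NVE17401) 6 of its 28.

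The 3 genes were found partly in the same tentacle cells of cluster 15. NVE23943 was detected in 37 of the 98 cells, NVE12084 in 39 and NVE2213 in 23. At least 1 of the 3 was seen in 62 of the 98, NVE23943 and NVE12084 together in 19, and all 3 in 6. Whether these overlaps exceed those of independent detection was not tested. At least 1 of the 3 genes was seen in 8 of 49 pharynx cells and 2 of 37 mesentery cells of the cluster, and no 2 of them together. NVE23943 and NVE12084 were each in 4 of those pharynx cells and 1 of those mesentery cells, and NVE2213 in 0. With so few positive cells, the lack of shared cells cannot be set against the tentacle. Median depth was 1176 UMIs in tentacle cells, 1301 UMIs in pharynx cells and 783 UMIs in mesentery cells. The other muscle-like cluster, 7, with 359 of 515 cells from the body wall, had a receptor level of 337 CPM, and there CCKAR_CAVPO (NVE11809) had the most UMIs, 26 (52.5 CPM).

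Cluster 5 held 15.8% of the receptor UMIs. Most of its 523 cells came from the pharynx (351) and mesentery (111), and its leading genes included NvParaxis-like (NVE19720) and APLP_LOCMI (NVE25290), named after an apolipophorin of insect lipid transport. CCKAR_CAVPO (NVE11809) had 113 of its UMIs there (53.1%) and was seen in 16.6% of the cells, and NK3R_HUMAN (NVE20500) had 75 (44.6%). Within the cluster NVE11809 stood at 184 CPM in pharynx cells and 79.5 CPM in the others, 2.32-fold (1.37 to 4.14), and NVE20500 at 125 CPM and 46.7 CPM, 2.67-fold (1.36 to 5.82). The pharynx thus exceeded the other tissues pooled within this cluster too. NK3R_HUMAN (NVE20500) had its highest level in cluster 19, 305 CPM (213 to 422), where 25.3% of the 87 cells held it, and no cell of that cluster came from the tentacle. There too the pharynx cells were higher, at 515 CPM against 236 CPM in the others pooled (2.18-fold, 1.05 to 4.44). That level came from 15 UMIs in 20 pharynx cells. Its interval (288 to 849) overlapped those of the mesentery cells (154 to 454) and body wall cells (63.9 to 379).

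**Figure D5:**
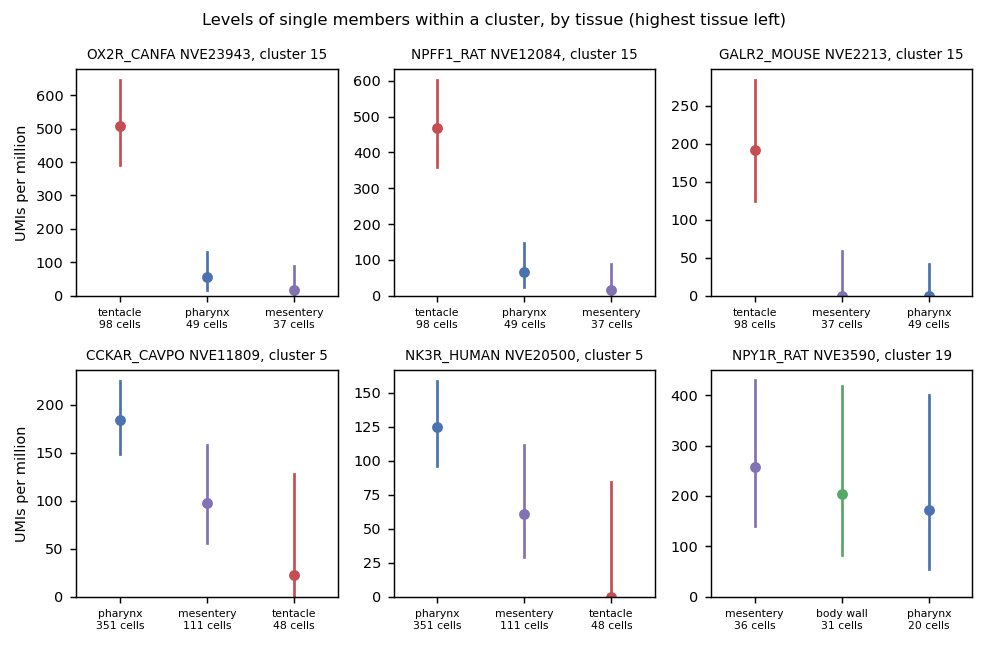
CPM (linear axes from 0) of single members within 1 cluster, by tissue, for tissues with at least 20 cells; points are levels and bars 95% intervals for counting error. In cluster 15 the 3 members are far higher in tentacle cells than in pharynx or mesentery cells, in cluster 5 both members are highest in pharynx cells, and NPY1R_RAT NVE3590 is similar in the 3 tissues of cluster 19.

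OX2R_CANFA (NVE21413) was held by clusters made up mostly of pharynx cells. Cluster 8, with 883 of 977 cells from the pharynx and NvFoxA (NVE20630), a forkhead factor gene, among its leading genes, held 120 of its UMIs (194 CPM, 161 to 232). Cluster 0, with 620 of 715 cells from the pharynx and led by small heat shock protein names, held 50, and cluster 12, led by names of cilium and flagellum proteins such as ODF3A_XENLA (NVE26201) and ENKUR_HUMAN (NVE19785), held 23. Within cluster 8 it stood at 214 CPM in pharynx cells and 15.9 CPM in the others, 13.4-fold (2.36 to 535), where the others had 1 UMI in 94 cells. NPYR_DROME (NVE25956) and CCKAR_CAVPO (NVE18316) had their highest levels in cluster 12, 40.1 CPM and 47.4 CPM, and their most UMIs in cluster 8, 17 and 24, so these 3 pharynx-high genes shared their leading clusters.

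NPY1R_RAT (NVE3590) was found in clusters of every tissue. It had 132 UMIs in cluster 26, in 20.7% of its 579 cells, all from the body wall, and 38 in cluster 25, nearly all body wall and led by toxin names of Nematostella (TX411_NEMVE, NVE1812). It had 70 in cluster 1, which was mostly tentacle, and its highest level was in cluster 19, 220 CPM. In cluster 1 it stood at 136 CPM in tentacle cells and 129 CPM in pharynx cells, 1.06-fold (0.521 to 2.42), and in cluster 19 at 257 CPM in mesentery cells, 203 CPM in body wall cells and 172 CPM in pharynx cells, with overlapping intervals. In cluster 10, led by names of mitosis proteins, it stood at 210.02 CPM in the 33 body wall cells (101 to 386), 108 CPM in tentacle cells (39.6 to 235), 26.6 CPM in pharynx cells (3.22 to 96.0) and 10.1 CPM in mesentery cells (1.22 to 36.5), so body wall and tentacle cells overlapped there. The body wall cells of clusters 5 and 7 stood 4.41-fold and 3.98-fold above the other tissues, with intervals that held 1 (0.108 to 26.7 and 0.612 to 168).

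Some members had their highest level or their most UMIs in smaller clusters. OX1R_MOUSE (NVE22161), which lies outside the naming rule and was chosen after its values were seen, had 19 UMIs in body wall, 4 in tentacle, 2 in mesentery and 1 in pharynx, 8.35-fold higher in the body wall (3.36 to 23.5), and 16 of its 26 UMIs lay in cluster 11. All 16 came from the 71 body wall cells of that cluster and 0 from its 33 tentacle cells. Among clusters of at least 50 cells, SSR5_BOVIN (NVE18490) was highest in cluster 18, which had the homeobox and paired-box name PAX6_CHICK (NVE1796) among its leading genes, at 117 CPM (53.5 to 222). That level came from 9 UMIs, and clusters 13 and 26 also held 9 each. NPFF2_RAT (NVE10336) and GALR2_RAT (NVE10335) each had the most UMIs in cluster 9, 16 and 11, a cluster of 150 cells from the body wall alone. Next came cluster 7 with 11 UMIs for NVE10336 and cluster 2 with 10 for NVE10335. NK2R_MOUSE (NVE5383) had 12 of its 49 UMIs in the 26 cells of cluster 27, at 331 CPM (171 to 578), beside 11 in cluster 5 and 10 in cluster 2.

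Some members with neighbouring identifiers shared a leading tissue and others did not. There were 11 runs of consecutive NVE numbers, with 26 members in all and at most 4 in a run. Whether these numbers follow the order of genes in the genome is not stated in the sources at hand. NVE15843 and NVE15844 had 23 of 27 and 17 of 20 UMIs in body wall. NVE10335 and NVE10336, which bear names of different receptor types, had 16 of 33 and 40 of 52 there. NPYR_DROME (NVE11808) and CCKAR_CAVPO (NVE11809) differed: the first had 17 of its 32 UMIs in body wall and the second 121 of its 213 in pharynx. In the run of NVE275 to NVE278, the first 3 had 14, 40 and 14 UMIs in body wall and 0, 20 and 1 in tentacle, and the last had none in any tissue.

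Most G protein and effector genes with at least 20 UMIs, which act downstream of such receptors, had no call in any tissue, beside 36.7% of all genes. They were far more abundant than the receptors, with 2356 UMIs for the G protein alpha list alone, and the difference from the receptors was not tested. Of 6 genes named after G protein alpha subunits, which carry the signal into the cell, 5 had no call in any tissue and 1, GNAO_BOVIN (NVE2113), was low in the tentacle. Of 6 beta and gamma subunit genes, also 5 had no call. Of 14 effector genes with at least 20 UMIs (of 29), such as phospholipase C and protein kinases A and C, 8 had none. Of the 14, 2 were pharynx-high (13% of all genes) and 1, ITPR1_MOUSE (NVE2263), mesentery-high (8.92%), near those shares. Low calls numbered 4 in body wall (28.5% of all genes), 2 in tentacle (24.7%), 2 in mesentery (21.3%) and 1 in pharynx (17.6%). Among genes that end the signal, receptor kinases and arrestins at the receptor and RGS proteins at the G protein alpha subunit (7 of 12 with at least 20 UMIs), 3 were high in the pharynx (13% of all genes), 4 low in the tentacle (24.7%) and 3 low in the body wall (28.5%). Only 2 of these 7 had no call in any tissue. RGS22_HUMAN (NVE14861), pharynx-high, had 116 UMIs in pharynx, 20 in mesentery, 7 in tentacle and 4 in body wall.

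As lists, genes that make and process peptides had their highest sums in the tentacle, but single genes differed. The 15 processing genes (12 with at least 20 UMIs), named after prohormone convertases and the carboxypeptidases that trim peptides, stood at 595 CPM in tentacle, 214 CPM in pharynx, 203 CPM in body wall and 180 CPM in mesentery, with 7 of the 12 high in the tentacle (15.9% of all genes) and 8 low in the body wall (28.5%). Of the 12, 1 was high in the pharynx (13% of all genes) and 1 in the body wall (11.2%). The processing gene with the most UMIs, CBPD_LOPSP (NVE15017), stood at 85.3 CPM in body wall and 70.5 CPM in tentacle. PCSK5_HUMAN (NVE14462) stood at 68.4 CPM in body wall and 30.4 CPM in tentacle. The processing list had its highest level in cluster 6, rich in stinging cell markers, at 1655 CPM, where the receptor list stood at 20.1 CPM. CBPE_PANTR (NVE18157), named after carboxypeptidase E of neuroendocrine granules, had 80 UMIs in tentacle, 26 in pharynx, 1 in body wall and 0 in mesentery. Of 7 precursor genes, only the RFamide precursor and ORCKB_PROCL (NVE4601), named after an orcokinin precursor of crayfish, had at least 20 UMIs. NVE4601 had 23 UMIs in body wall, 13 in pharynx, 6 in tentacle and 5 in mesentery, and both precursors had their highest level in cluster 2, where the receptor list was highest as well.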

How the data were processed

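Per the labels and the submitters' processing notes, the authors ran Cell Ranger 2.1.0 to obtain the deposited UMI counts, whole numbers for each gene model in each barcode. No source at hand states the build, the alignment, how barcodes were called or how gene models got their names. A matrix holds 7000 barcodes, and a library 2517855 to 3499510 UMIs. Other deposited tables give gene names and barcodes and carry no measurement.

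Barcodes with at least 300 UMIs were kept and their counts summed per gene and tissue. Intervals (95%) are exact: Poisson for CPM, conditional Poisson for ratios and Clopper-Pearson for shares. PCR and droplet effects are not covered by them. Counts of 0 were set to 3 UMIs per tissue, or over the pooled tissues, for ratios. No doublet caller was run, and an alternative left out barcodes over 5000 UMIs (17 to 64 per tissue). Thinning drew 300 UMIs per cell without replacement with seed 1, and no kept cell was shallower. Cells were clustered jointly with scanpy 1.11.5 and igraph 0.11.9 on 2000 variable genes without the members, 30 components, 15 neighbours and Leiden resolution 1 (seed 1). A cluster was named X-like only where at least 3 of its 30 leading genes, from at least 2 families and with at least 2 among the first 10, were markers of X, so a cluster left unnamed may still be of a known type. Marker and pathway lists were matched on names, and entries of unrelated proteins with the same letters were left out.

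Named members were the 15 with the most UMIs among those with at least 50 (14 qualified), for each tissue the 3 with the largest ratio of at least 2 among those with at least 20 UMIs, the most abundant member of each receptor type and the leading member of each cluster where it had at least 20 UMIs there. The members and lists were chosen with earlier results of these data known. The ratio and call scripts were tested on simulated counts. Positions and sequences are not given, since 0 of the 126 members matched the RefSeq gene table. Alternatives changed the UMI minimum, the denominator, the fold, the abundance minimum, the reference tissues, shared barcodes and the cluster resolution. Alternatives chosen after seeing the data left out the most abundant member, the 4 clusters of the highest cnidocyte level or a member's richest cell. Computations used Python 3.11.15, NumPy 2.4.6, SciPy 1.17.1 and pandas 2.3.3.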

Additional observations from a re-analysis of the deposited data

Results flagged for a closer look

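Receptor UMIs were also present in the barcodes under 300 UMIs, which entered no comparison. There were 361 of them in the body wall (444 CPM of those barcodes, 399 to 492), 343 in the pharynx (461 CPM, 413 to 512), 318 in the mesentery (333 CPM, 298 to 372) and 287 in the tentacle (362 CPM, 321 to 406). In kept cells the levels were 499 CPM, 472 CPM, 262 CPM and 294 CPM in the same order of tissues, so the shallow barcodes were nearer to each other than the kept cells were. They are listed because they lie in data that the comparisons did not use. Whether they come from cells or from free RNA was not tested.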

How the results depend on the processing

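No paired analysis was possible because each tissue has 1 library. Of 175 ratios of named members under alternatives, which did not include leaving out a member's richest cell, 173 moved by less than their counting interval. The other 2 were OX2R_CANFA (NVE23943) and NPFF1_RAT (NVE12084), whose tentacle ratios became 4.94 and 4.82 without the 4 clusters of the highest cnidocyte level. Without its richest cell, the body wall ratio of SSR4_RAT (NVE10409) went from 2.12 to 0.733. In that check 5 of the 35 members called high fell under the threshold of 2. The list level moved beyond its interval as follows. With the 50 most abundant genes out of the totals it was 734 CPM in body wall, 684 in pharynx, 401 in tentacle and 383 in mesentery. Without barcodes over 5000 UMIs it was 523 in pharynx, 382 in tentacle and 335 in mesentery. Without the cnidocyte clusters it was 533 in tentacle and 524 in pharynx. Without NPY1R_RAT (NVE3590) it was 436 in pharynx, 384 in body wall, 245 in tentacle and 232 in mesentery, and with all barcodes it was 289 in mesentery.

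High calls with all barcodes numbered 8 in tentacle and 6 in mesentery, and without the cnidocyte clusters 8 in tentacle. At a fold of 3 there were 7 in pharynx and 1 in tentacle. With at least 50 UMIs only 14 members were tested, in place of 40. Of these 14, 5 were high in body wall, 5 in pharynx, 2 in tentacle and 0 in mesentery. Low calls numbered 13 in tentacle without the cnidocyte clusters, 13 in pharynx with all barcodes and 14 in pharynx without barcodes over 5000 UMIs. At a fold of 3 there were 10 low in mesentery and 2 in body wall. Of the 14 members with at least 50 UMIs, 8 were low in mesentery, 7 in tentacle, 4 in body wall and 1 in pharynx. Shares of all genes at these changed settings are not given, so these counts have no background beside them. Cells with a receptor UMI made up 45.2% in body wall, 36.6% in pharynx, 28.6% in tentacle and 25.7% in mesentery at a minimum of 500 UMIs, and 14.04%, 12.8%, 10.01% and 7.81% after thinning. The highest cluster stood at 1569.5 CPM at resolution 0.5. With at least 500 UMIs per barcode, 2 G protein alpha genes and 0 beta or gamma genes had a call, against 1 each. The median log2 ratio of all genes shifted by 0.34 in tentacle without the cnidocyte clusters, by 0.16 in tentacle and -0.24 in mesentery without barcodes over 5000 UMIs, and by 0.11 and -0.10 in the same tissues with all barcodes. The causes of these shifts were not tested. With medians of 542 to 766 UMIs per cell, a cell without a receptor UMI may still express the gene.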
